A study of Mus musculus with 37 samples.

Results

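The 37 genes described here code for proteins of DNA repair and of the kinase signal that DNA damage sets off. They were chosen by gene symbol from the repair pathways, and all 37 were found among the 54752 genes of the deposited gene table. By role they comprise 12 genes of homologous recombination, 3 of the complex that senses double-strand breaks, 4 checkpoint kinases and 4 genes of end joining. The others are 4 genes of mismatch repair, 4 of nucleotide excision repair, 4 of base excision and single-strand break repair, and 2 of the Fanconi anemia pathway, which repairs crosslinks between DNA strands. Homologous recombination copies lost sequence from an intact template, end joining ligates broken ends directly, and the excision and mismatch pathways replace damaged or mispaired bases. Oocytes make and repair programmed breaks early in meiosis, and the fully grown oocyte then stops transcription and keeps a store of mRNA that it uses through maturation and in the early embryo. As meiosis resumes, many stored transcripts are degraded, while others gain poly(A) tail and are translated.

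Each library was made from a single oocyte of a C57BL/6 female aged 6 to 8 weeks that had received 5 IU of PMSG. Oocytes at the GV stage, arrested in prophase with an intact nucleus, were taken 48 h after PMSG, and 6 were sequenced in batch A and 10 in batch B. The 6 oocytes at the MII stage were ovulated eggs from the ampulla, collected 15 h after hCG, and all belonged to batch A. The 15 oocytes at the MI stage, the metaphase before the polar body is released, were obtained by 8 h of culture in M16 medium, and all belonged to batch B. MII oocytes therefore matured in the animal and MI oocytes in culture, and each stage was compared with the GV oocytes of its own batch. No label names the mouse of an oocyte, so the p-values measure only the spread between these oocytes, some of which may share a mouse. The cDNA was primed at the poly(A) tail, so a longer tail and more transcript molecules cannot be told apart.

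The expected counts summed to a median of 10013962.5 per GV oocyte and 10509080 per MII oocyte in batch A, and to 11548239 per GV oocyte and 12840682 per MI oocyte in batch B. The shallowest library was MI oocyte 15 of batch B with 2709247 counts, and the deepest was MI oocyte 8 with 19390137. The repair genes together took 0.0977% of the counts in GV oocyte 7 of batch B, the lowest share, and 0.27% in MI oocyte 7, the highest. In MII oocyte 1 the number of genes detected was 29816, far from at most 22598 in any other oocyte of batch A. Calls of the members that were lost or gained without that oocyte are stated.

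The labelled cell type was checked against 10 oocyte markers, 15 markers of cumulus and granulosa cells and 8 of blood and immune cells. All 10 oocyte markers were present in every group, and their summed TPM (transcript counts per length, scaled to the same total in every oocyte) had medians of 12969 at GV and 7471 at MII in batch A, and 4550.5 at GV and 3763 at MI in batch B. The most abundant was Zp3, a protein of the egg coat, at GV in batch A and Gdf9, an oocyte growth factor, in the other groups. Between GV and MII, 4 of these markers were called lower (Ooep, Zp1, Zp2 and Zp3), and between GV and MI edgeR and DESeq2 called 0, with 3 at an unadjusted p under 0.05 by each. The cumulus and granulosa markers summed to medians of 29.9 TPM at GV and 21.4 at MII in batch A, and 29.4 at GV and 26.1 at MI in batch B, with Cyp19a1 the most abundant. Amh, Foxl2 and Ptx3 were at 0 in every oocyte of batch B, and Ptx3 also at GV in batch A. The cumulus markers Ccnd2 and Gja1 were called lower at MI, and at MII edgeR and DESeq2 called 0 of the 3 that could be tested, with 0 at an unadjusted p under 0.05. The blood and immune markers summed to 1.42 and 2.49 TPM in batch A and to 15.0 and 8.75 in batch B, in the same order of stages. Lyz2 and Cd74 were at 0 in every oocyte except in the MII group, and MII oocyte 1 had the highest sum, 38.7. Too few counts left 0 of this list to test at MII and 2 at MI, of which edgeR and DESeq2 called 0, with 1 at an unadjusted p under 0.05. The part of these other cells in the values of the repair genes was not tested.

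The repair genes were present throughout maturation. A gene counted as detected with at least 1 count, and 32 of the 37 were detected in every oocyte, with 35 to 37 in any single oocyte. The other 5, Chek2, Mlh3, Eme1, Xpa and Ercc1, were detected in all oocytes of batch A and missed in 1 to 3 oocytes of a group of batch B. A count of 0 allows up to 3 counts in that library at 95% confidence, which covers counting error alone.

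Levels were compared between genes as TPM, which divides counts by transcript length. At GV in batch A the members ranged from 0.71 to 277 TPM with a median of 16.6, against 11.7 over all 12923 genes tested that had a length, and 26 of the 37 lay above 10 TPM. Chek1, a kinase that halts the cell cycle when DNA replication or repair is incomplete, stood highest with a median of 277 TPM and a range of 212 to 407 over 6 oocytes. Brca2, a protein of homologous recombination, followed with a median level of 138 TPM (100.4 to 159), so its oocytes lay below all those of Chek1. Mus81, a nuclease that cuts branched DNA, came next at 101 TPM (83.0 to 141) and overlapped with Brca2. This TPM sums all Mus81 transcripts, and a short transcript weighs more in it than its share of the counts. Mus81-205, which retains an intron and has 393 bases, held a median of 8.13% of the Mus81 counts. The coding Mus81-202, of 2067 bases, held 79.5%. Mlh3, a mismatch repair protein also needed for meiotic crossovers, was the lowest in all 4 groups, with 0.71 TPM at GV in batch A.

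The gene of highest level in a role stood apart in some roles and lay close to the next in others. Rad50 had 57.5 TPM at GV in batch A, while the other members of the break sensing complex had 14.1 (Nbn) and 14.6 (Mre11a). Among the checkpoint kinases Chek1 stood far above Atr (12.6 TPM), Chek2 (2.54) and Atm (2.29). In end joining Xrcc6 had 51.4 TPM (40.8 to 62.6) and Xrcc5 42.6 (33.6 to 67.0), which overlapped, whereas Prkdc, the kinase that the Ku proteins recruit, had 1.58. The mismatch repair gene Msh3 had 68.2 TPM and Msh6 62.3, and these neighbours overlapped in range. TPM sums coding and noncoding transcripts of a gene, so these 2 values are not levels of coding mRNA alone. The largest share of the Msh3 counts was that of Msh3-212, a noncoding transcript of 1363 bases (median 39.0%). The coding transcript Msh3-202 held 19.4%, whereas the coding transcript Msh6-201 held 97.5% of the Msh6 counts. Apex1, which cuts DNA at sites that have lost a base, led base excision repair at GV in batch A with 46.6 TPM. Parp1 was the highest of this role at MII (29.8 TPM, against 28.7 for Apex1) and in batch B (71.1 at GV and 56.7 at MI). Xpc, which recognises distorted DNA, led nucleotide excision repair with 12.8, and Fancd2 led the Fanconi anemia genes with 14.0. In batch B the order differed at the top, where Msh6 was highest at both stages, with medians of 139.8 TPM at GV and 140.6 at MI, against 137 at GV for Chek1, whose range overlapped. In batch B Lig4 led end joining, with 49.9 TPM at GV and 56.4 at MI. The batches were not compared by a test.

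**Figure D1:**
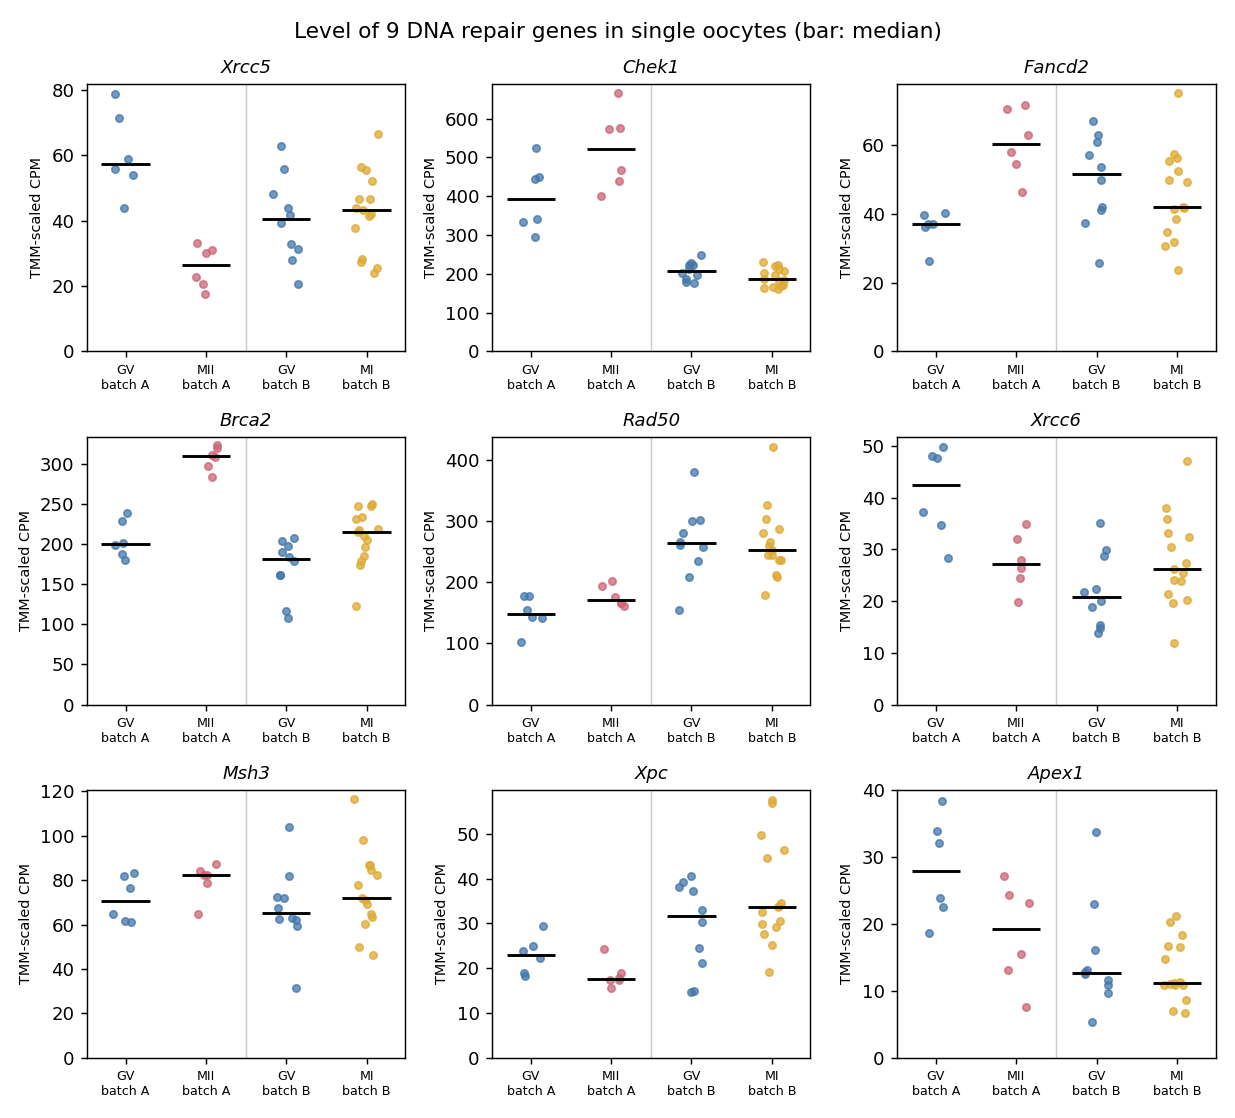
Level of 9 repair genes in each of the 37 oocytes, as CPM (counts relative to the TMM-scaled library total, y axis, starting at 0), by stage and batch, where each point is an oocyte and each bar the median of its group. The MII oocytes lie below all GV oocytes of batch A for Xrcc5 and above all of them for Brca2 and Fancd2, and for Brca2 the order of the means turns with spike-in scaling (log2 change −0.18).

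The comparison of GV vs. MII oocytes asks how the stored repair transcripts differ once the oocyte has reached MII, and levels within a gene are given as CPM, counts relative to the TMM-scaled library total. Xrcc5, the larger subunit of the Ku complex that binds broken ends for joining, fell between GV and MII. It ranged from 43.8 to 78.9 CPM at GV with a median of 57.3, and from 17.6 to 33.2 at MII with a median of 26.5. All 6 MII oocytes lay below all 6 GV oocytes. The log2 fold change was −1.22 (SE 0.19), a 2.33-fold decrease, with an adjusted p of 3.98e-04 by edgeR's quasi-likelihood test with Benjamini-Hochberg adjustment, and 1.26e-07 to 0.0036 over the 7 alternatives tried. Xrcc5 (ENSMUSG00000026187.8) lies at chr1:72307421-72394952 of GRCm38 on the plus strand. All 37 members were tested, and only Xrcc5 passed both the adjusted p and a fold change over 2, which 8.47% of all 12929 genes tested did, and 6.32% as lower. That is 2.7% of the members, below the background, but it rests on 1 call, and DESeq2 called 2. Counts this small do not set the members apart from the other genes.

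By adjusted p alone 6 members passed, 4 higher and 2 lower at MII, against 9.06% of all genes tested as higher and 11.5% as lower. Without MII oocyte 1 there were also 6, with Rad51d (−0.60, edgeR adjusted p = 0.0384, against −0.46 and 0.0997 with it) in place of Xrcc6. The members were 22 higher and 15 lower in sign with a median log2 change of 0.13, and all genes tested had a median of 0.01 with 51.0% higher. These directions are relative to the bulk of the mRNA. With size factors from the ERCC spike-ins the median of all genes moved by −0.73 log2, 1 member was higher and 36 were lower, and 11 members were called lower (29.7%, against 29.3% of all genes tested). On that scale 0 members passed as higher by edgeR's adjusted p (4 with TMM scaling and also by DESeq2's size factors), while 21 of the 37 still lay above the median of all genes. The split of all calls also moved, from 25.4% higher to 3.34%, and was 13.0% with HTSeq counts.

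Within homologous recombination, 9 of the 12 members had a higher value at MII and 3 a lower one, and Brca2 and Palb2 passed by adjusted p as higher, but both turned to negative values under spike-in scaling. Brca2 (ENSMUSG00000041147.10, chr5:150522630-150570329, plus strand) had 180.3 to 239 CPM at GV (median 200.2) and 283 to 323 at MII (median 309.9). Each of the 6 MII oocytes lay above every GV oocyte of batch A. The log2 change was 0.58 (SE 0.11, edgeR adjusted p = 0.0024), or −0.18 with spike-in scaling. In TPM, which divides by transcript length and has no TMM scaling, the Brca2 medians were 138 at GV and 139.7 at MII. The TPM ranges overlapped (100.4 to 159 and 120.6 to 205). Palb2, which bridges Brca1 and Brca2 at breaks, had 29.3 to 41.7 CPM at GV (median 33.7) and 43.9 to 69.4 at MII (median 55.9). It too was above all GV oocytes in 6 of 6, with a change of 0.66 (SE 0.15, edgeR adjusted p = 0.0051), or −0.07 with spike-in scaling. Its TPM medians were 36.6 at GV and 52.4 at MII, with ranges that overlapped (29.6 to 49.8 and 43.1 to 68.8). The lowest change of the role was that of Xrcc3, which acts in the repair of breaks by strand exchange, at −0.76 (SE 0.29), which missed the threshold at an edgeR adjusted p of 0.0715 with 5 of 6 MII oocytes below the GV median, while the adjusted p passed with DESeq2 (0.0414) and with no filter on low counts (0.0105). With spike-in scaling Xrcc3 (−1.47, adjusted p = 0.0014), Rad51d (−1.18, 0.0022) and Mus81 (−1.16, 8.22e-04) were called lower.

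Of the 2 Fanconi anemia genes, Fancd2, which is tagged with ubiquitin at crosslinks, showed the highest change of all members. It had 26.2 to 40.1 CPM at GV (median 37.1) and 46.5 to 71.8 at MII (median 60.4), again without overlap of the 6 and 6 oocytes. The change was 0.75 (SE 0.15, edgeR adjusted p = 0.0026), and 0.03 with spike-in scaling, where it no longer passed. In TPM the Fancd2 medians were 14.0 at GV and 19.9 at MII, and the ranges overlapped (10.9 to 15.7 and 14.5 to 23.1). Fanca, a subunit of the core complex that tags Fancd2, changed by 0.08 (SE 0.30). Altogether 5 members did not overlap between GV and MII, 4 higher and 1 lower, while 9.79% of all genes tested did not overlap.

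In end joining 3 of 4 members were lower in sign, with a median change of −0.36, close to the −0.37 of nucleotide excision repair. Besides Xrcc5 it holds Xrcc6, the smaller Ku subunit, which had 28.3 to 49.8 CPM at GV (median 42.4) and 19.8 to 35.0 at MII (median 27.2). Of the MII oocytes 4 of 6 lay below all GV oocytes, and the change was −0.57 (SE 0.18, edgeR adjusted p = 0.0323). This call was lost without MII oocyte 1 (adjusted p = 0.0724), with HTSeq counts (0.1025) and with the replicate number as a block (0.0617), and the adjusted p ranged from 3.88e-04 to 0.1025 over the 7 alternatives. Lig4, the ligase of this pathway, changed by 0.13 (SE 0.13) and Prkdc by −0.14 (SE 0.23), and neither passed with TMM scaling. With spike-in scaling both passed the adjusted p as lower (−0.60, adjusted p = 0.0477, and −0.89, adjusted p = 0.0340).

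Among the mismatch repair genes, Msh6, which detects mispaired bases, had 89.3 to 133 CPM at GV (median 116) and 144 to 187 at MII (median 159). All 6 MII oocytes lay above the GV oocytes, and the change was 0.53 (SE 0.13, edgeR adjusted p = 0.0098), or −0.22 with spike-in scaling. The call was also lost with no filter on low counts (0.0623) and with the replicate block (0.0505), and the adjusted p ranged from 0.0012 to 0.4552 over the 7 alternatives. In TPM the Msh6 medians were 62.3 at GV and 66.5 at MII, and the ranges overlapped (45.0 to 74.2 and 61.8 to 79.4). Msh3, which detects short unpaired loops, had 61.3 to 83.2 CPM at GV (median 70.6) and 64.7 to 87.4 at MII (median 82.2), which overlapped, with a change of 0.16 (SE 0.13).

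The checkpoint kinases did not pass edgeR's test with TMM scaling, although they held both a high and a low value, and Atr passed the adjusted p as lower with spike-in scaling (−0.76, adjusted p = 0.0187). Chek1 had 295 to 525 CPM at GV (median 392) and 401 to 665 at MII (median 521), with 3 of 6 MII oocytes above all GV oocytes. Its change was 0.39 (SE 0.17, edgeR adjusted p = 0.1051), and −0.35 with spike-in scaling. Chek2, a kinase that removes oocytes with unrepaired breaks, was measured from few counts, with medians of 21 at GV and 11.5 at MII. It changed by −1.23 (SE 0.45) with 6 of 6 MII oocytes below the GV median, at an edgeR adjusted p of 0.0612. DESeq2 called it at 0.0464, and over the 7 alternatives the adjusted p ranged from 0.0032, with spike-in scaling, to 0.1408.

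In the remaining roles 0 members passed the adjusted p of edgeR with TMM scaling or of DESeq2 between GV and MII, while with spike-in scaling 5 were called lower, Apex1 (−1.36), Ercc1 (−1.32), Xpa (−1.19), Lig1 (−1.16) and Xpc (−1.07). The 3 members of the break sensing complex had changes of 0.17 to 0.25, with 0 at an unadjusted p under 0.05. Rad50 had 102.7 to 178 CPM at GV (median 149) and 161 to 202 at MII (median 171), and these ranges overlapped. In nucleotide excision repair 3 of 4 members were lower in sign, from −0.63 for Ercc1 to 0.09 for Ercc4, with 1 at an unadjusted p under 0.05. Xpc had 18.4 to 29.5 CPM at GV (median 23.0) and 15.5 to 24.3 at MII (median 17.5), with 4 of 6 MII oocytes below all GV oocytes. In base excision and single-strand break repair 2 members were higher and 2 lower in sign, and 2 had an unadjusted p under 0.05. Apex1 had 18.6 to 38.4 CPM at GV (median 28.0) and 7.54 to 27.2 at MII (median 19.3), a change of −0.61 (SE 0.28) whose ranges overlapped. The strand used in counting is not stated, and 61.7% of the exon bases of Apex1 are shared with Pip4p1 on the opposite strand, so reads in that part may come from either gene. Lig3, Rad54l, Fanca and Eme1 also share over 10% of their exon bases with other genes, and 20 of the 37 members share some.

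**Figure D2:**
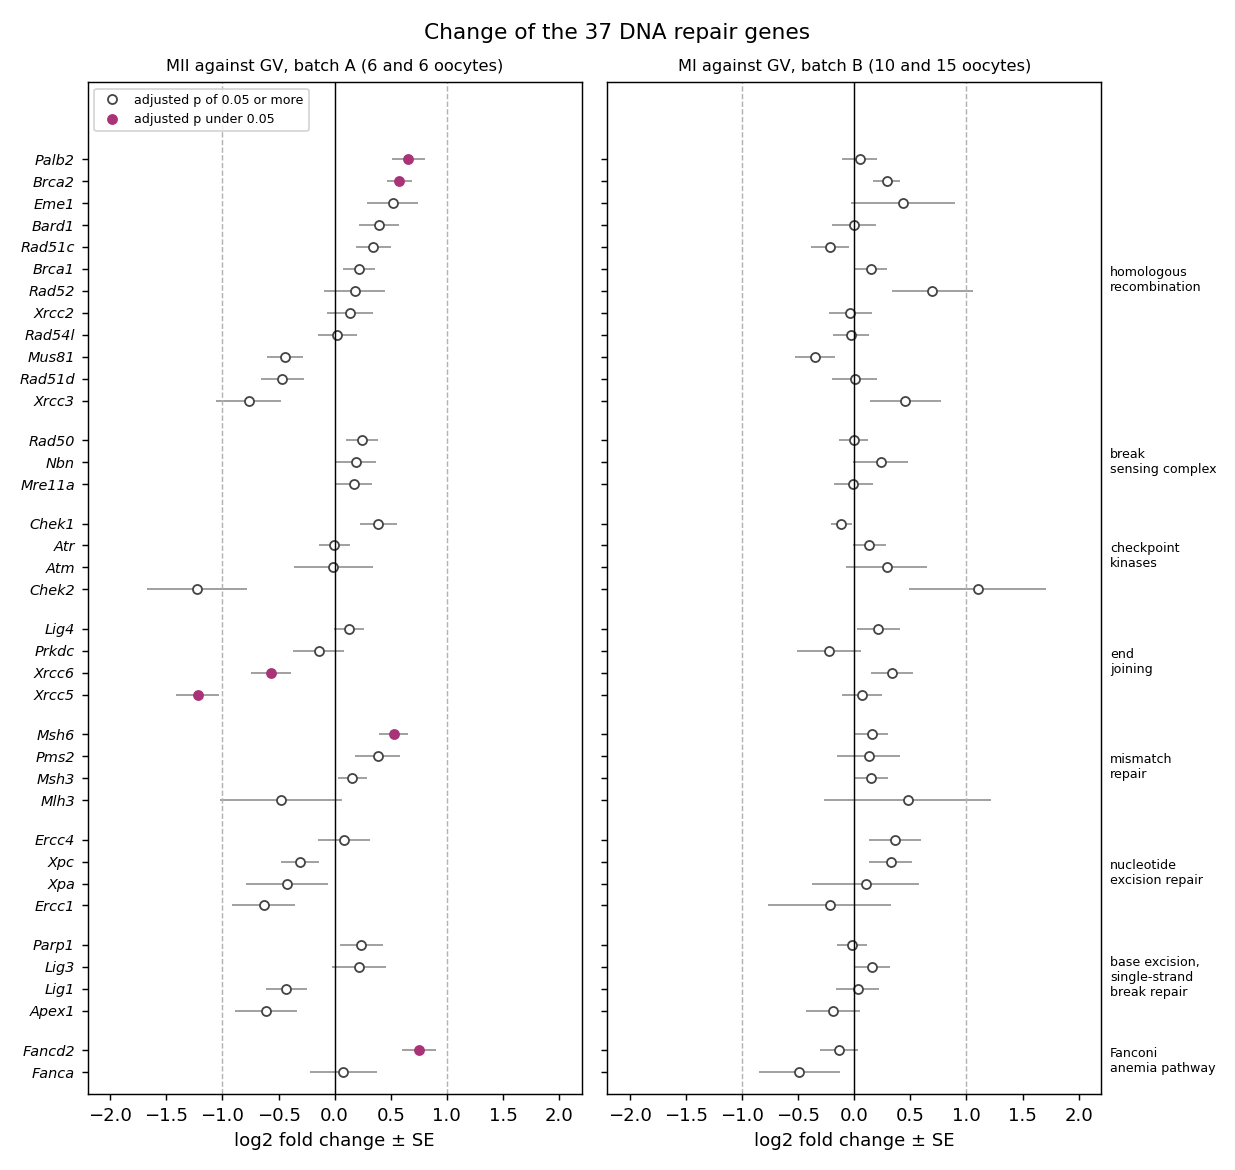
Log2 fold change (x axis) of the 37 repair genes, grouped by role, for MII against GV in batch A (left, 6 and 6 oocytes) and for MI against GV in batch B (right, 15 and 10 oocytes), with bars of 1 SE and filled points for an adjusted p under 0.05. On the left 6 genes passed, 4 higher and 2 lower with TMM scaling (0 higher with spike-in scaling), and on the right 0 passed.

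The comparison of GV vs. MI oocytes asks whether such differences are present in the middle of maturation. With 10 GV and 15 MI oocytes, edgeR called 0 of the 37 members, as did DESeq2. Of all 12419 genes tested edgeR called 15 (0.121%), or 0.145% by adjusted p alone, and DESeq2 called 116. At an unadjusted p under 0.05 edgeR found 1 member, Brca2, and DESeq2 found 2, and edgeR found 0 without GV oocyte 7, the lowest GV oocyte of batch B for Brca2. The members were 23 higher and 14 lower in sign with a median log2 change of 0.10, and all genes tested had a median of 0.02 with 52.2% higher. Brca2 had 109 to 207 CPM at GV (median 182) and 122 to 250.3 at MI (median 215). Of the 15 MI oocytes 12 lay above the GV median, and the change was 0.29 (SE 0.12, unadjusted p = 0.0232, edgeR adjusted p = 0.3511), or 0.23 without that oocyte (edgeR adjusted p = 0.5903).

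Xrcc5 had 20.7 to 62.9 CPM at GV (median 40.5) and 24.0 to 66.6 at MI (median 43.3), so the groups overlapped almost fully and the change was 0.07 (SE 0.18). Xrcc6 had medians of 20.9 and 26.3 CPM, with a change of 0.34 (SE 0.19, edgeR adjusted p = 0.5357) and 12 of 15 MI oocytes above the GV median. The highest change was that of Chek2 at 1.10 (SE 0.61), from medians of 8.5 counts at GV and 19 at MI, and the lowest was that of Fanca at −0.49 (SE 0.36). Neither differed beyond the spread between oocytes by edgeR's adjusted p (0.5244 and 0.6707). All 4 mismatch repair genes were higher in sign, by 0.13 to 0.48, and both Fanconi anemia genes were lower, with 0 of these at an unadjusted p under 0.05 by edgeR or DESeq2. The spike-ins had 0 to 32 counts in an oocyte of batch B, too few to scale by, so these directions were checked with TMM and DESeq2's size factors alone.

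The MII change of batch A and the MI change of batch B were then tested against each other in a model of all 37 oocytes. By adjusted p 3 members differed, Xrcc5, Fancd2 and Chek1, while 5.46% of all 15083 genes tested did. MI and MII oocytes were never in the same batch, so stage, batch and the place of maturation cannot be told apart in these differences. For Xrcc5 the MII change was lower than the MI change by −1.22 log2 (SE 0.30, edgeR adjusted p = 0.0094, 0.0022 to 0.0303 over 8 alternatives). It was below all GV oocytes of its batch in 6 of 6 MII oocytes and in 0 of 15 MI oocytes.

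For Fancd2 (ENSMUSG00000034023.16, chr6:113531682-113597017, plus strand) the difference was 0.95 (SE 0.26, edgeR adjusted p = 0.0229, 0.0095 to 0.1063 over 8 alternatives). Fancd2 had 25.8 to 67.1 CPM at GV in batch B (median 51.6) and 23.7 to 75.3 at MI (median 42.0), and 10 of 15 MI oocytes lay below the GV median, whereas 6 of 6 MII oocytes lay above all GV oocytes of their batch. For Chek1 (ENSMUSG00000032113.16, chr9:36708482-36727065, minus strand) the difference was 0.58 (SE 0.17, edgeR adjusted p = 0.0382, 0.0194 to 0.1684). Chek1 had 177 to 248 CPM at GV in batch B (median 207) and 161 to 231 at MI (median 186), with 11 of 15 MI oocytes below the GV median. The calls of Fancd2 and Chek1 were lost with HTSeq counts (0.0753 and 0.1401), and that of Chek1 also with no filter on low counts (0.1684). Per gene, HTSeq counts divided by expected counts had a median of 1.07 to 1.13 in MI oocytes 4, 8 and 9, and of 1.98 to 2.199 in the other 34. Both calls were also lost with HTSeq counts that left out these 3 oocytes. The differences themselves were 0.92 for Fancd2 and 0.53 for Chek1 with HTSeq counts, and 0.84 and 0.58 when these 3 oocytes were left out. The spike-ins could not scale batch B, so this test has no alternative with that scaling. In batch A alone spike-in scaling moved the MII changes of Chek1 and Fancd2 to −0.35 and 0.03. Their MI changes were −0.12 and −0.14 with TMM scaling, and −0.11 and −0.13 with DESeq2's size factors. With DESeq2's size factors the differences were 0.58 for Chek1 (edgeR adjusted p = 0.0410) and 0.95 for Fancd2 (edgeR adjusted p = 0.0225). How far these 2 differences depend on the choice between TMM and spike-in scaling was not tested. Chek2 had the largest difference in size, −2.24 (SE 0.93), which did not pass (edgeR adjusted p = 0.1730).

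For comparison, 74 other repair genes were examined in the same fits. Between GV and MII 68 of them were tested, with a median log2 change of −0.09. By adjusted p alone 6 higher and 9 lower passed, against 9.06% of all genes tested as higher and 11.5% as lower. With the fold change as well 3 were called, against 8.47% of all genes tested, and 6.32% as lower. These 3 were all lower at MII, and each was also lower with spike-in scaling. Mgmt, which removes alkyl groups from guanine, fell from a median of 5.42 CPM (3.13 to 6.55) to 1.39 (0.607 to 1.86), with 6 of 6 MII oocytes below all GV oocytes. Its log2 change was −1.97 (SE 0.31, edgeR adjusted p = 4.75e-04). Fancl, the ubiquitin ligase that tags Fancd2, fell from a median of 6.69 CPM (5.80 to 12.1) to 3.17 (1.39 to 3.61), also in 6 of 6, by −1.57 (SE 0.31, edgeR adjusted p = 0.0025). Rad54b, a motor protein of recombination, fell from a median of 26.1 CPM (14.2 to 34.7) to 13.3 (8.18 to 17.3), with 3 of 6 MII oocytes below all GV oocytes. Its change was −1.001 (SE 0.23, edgeR adjusted p = 0.0063), close to the fold threshold, which it missed in 5 of the 7 alternatives, without MII oocyte 1 (−0.89), with HTSeq counts (−0.82), with DESeq2 or its size factors (both −0.99) and with the replicate block (−0.997). Of the 71 genes tested for it, Rad54b alone had an MII change that differed from its MI change (−1.11, SE 0.30, edgeR adjusted p = 0.0209), against 5.46% of all genes tested. Between GV and MI edgeR and DESeq2 called 0 of the 68 tested, with 2 and 4 at an unadjusted p under 0.05.

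The members have 269 annotated transcripts, of which 89, from 36 genes, were tested between GV and MII. Of these 48 were higher and 41 lower in sign with a median log2 change of 0.12, and 5 were called, 3 higher and 2 lower, while 5.57% of all 22461 transcripts tested were called. In 35 of the 37 genes the transcript with the largest share of the counts was the same at GV and MII, and in 33 it was the same at GV and MI. In Chek1 it differed between GV and MII, from Chek1-201 (median share 45.6%) to Chek1-207 (43.6%). The other gene, Mlh3, had medians of 19.5 and 11.5 counts and 0 transcripts with enough counts to test, too few to tell which is its main transcript. Xrcc5 has a single annotated transcript, Xrcc5-201, which fell as the gene did (−1.24, SE 0.19, edgeR adjusted p = 0.0016).

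Transcripts of Mus81 (ENSMUSG00000024906.9, chr19:5482345-5488402, minus strand) changed in both directions. The gene as a whole had 54.0 to 107 CPM at GV (median 72.4) and 51.4 to 63.6 at MII (median 56.5), a log2 change of −0.44 (SE 0.16) that did not pass by edgeR (adjusted p = 0.0595) and passed DESeq2's adjusted p without the fold, while with spike-in scaling it was called lower (−1.16). Its main transcript Mus81-202, which codes for the protein, went from a median of 79.5% of the Mus81 counts at GV (73.0% to 83.8%) to 58.3% at MII (47.5% to 62.5%). In CPM it was lower by −0.94 (SE 0.19, edgeR adjusted p = 0.0075) with 6 of 6 MII oocytes below all GV oocytes, which misses the fold threshold. Mus81-204 rose 6.09-fold, from a median of 2.15 CPM (1.03 to 5.35) to 16.3 (14.2 to 20.0). All 6 MII oocytes lay above all GV oocytes (log2 change 2.61, SE 0.38, edgeR adjusted p = 0.0012), and the change was 1.87 with spike-in scaling. Its share of the Mus81 counts went from 3.67% (1.40% to 4.94%) to 30.1% (24.6% to 34.4%). The annotation gives Mus81-204 the class of nonsense-mediated decay, and its 3′ end lies 487 bases downstream of that of Mus81-202, with a 3′ UTR of 901 bases against 131. Each 3′ UTR is counted from the transcript's own annotated stop codon, so the 2 lengths differ by more than the shift of the end. Mus81-205, a short transcript with a retained intron, fell by 2.39 on the log2 scale (SE 0.68, edgeR adjusted p = 0.0437) with 5 of 6 MII oocytes below all GV oocytes, a call lost without MII oocyte 1 (0.0792, with a change of −2.44; 0.0020 to 0.0792 over 4 alternatives). At MI the share of Mus81-202 had a median of 64.6% (40.0% to 81.7%), against 71.5% (49.9% to 90.6%) at GV in batch B. That of Mus81-204 had a median of 9.28% (1.80% to 31.4%), against 8.58% (0.726% to 14.3%), and MI oocytes 2 (27.4%) and 6 (31.4%) lay within the range of MII. The change of Mus81-204 there was 0.04 (SE 0.43).

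**Figure D3:**
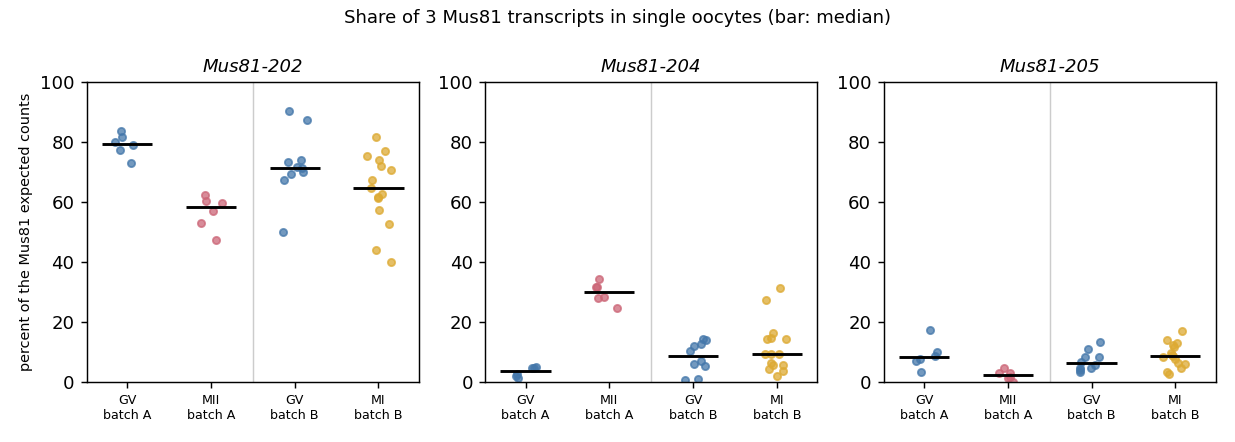
Share of the Mus81 expected counts (y axis, percent) assigned to 3 Mus81 transcripts in each of the 37 oocytes, by stage and batch, where each point is an oocyte and each bar the median of its group. At MII the share of Mus81-204 has a median of 30.1%, against 3.67% at GV in batch A, and no oocyte of these groups overlaps.

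A longer 3′ UTR also marked Rad51c-202, a transcript of the recombination gene Rad51c. It went from a median of 2.67 CPM at GV (1.27 to 4.33) to 6.07 at MII (5.18 to 11.6), higher in 6 of 6 MII oocytes than in all GV oocytes, with a log2 change of 1.26 (SE 0.34, edgeR adjusted p = 0.0325). Its 3′ end lies 1946 bases downstream of that of the main transcript, Rad51c-204, and its share of the Rad51c counts was 7.03% at GV and 12.1% at MII. The annotation gives Rad51c-204 the class of nonsense-mediated decay, and it held 72.6% of the counts at GV and 71.9% at MII. The 3′ UTR has 2741 bases in Rad51c-202 and 959 in Rad51c-204. It has 289 in Rad51c-201, the other coding transcript tested, which changed by −0.03 (SE 0.45). The call of Rad51c-202 was lost without MII oocyte 1 (0.0529), with spike-in scaling (0.2546, change 0.62) and with no filter on low counts (0.1986), and the adjusted p ranged from 0.0032 to 0.2546 over 4 alternatives. Msh3-202, a coding transcript of Msh3, went from a median of 13.6 CPM (11.4 to 15.95) to 25.0 (20.3 to 39.6), above all GV oocytes in 6 of 6. Its change was 1.05 (SE 0.20, edgeR adjusted p = 0.0062), and with spike-in scaling 0.29 with no call (0.4421; 3.09e-05 to 0.4421 over 4 alternatives). Brca2-210, Fancd2-201 and Msh6-201 were higher and Xrcc6-212 lower by adjusted p alone, as their genes were. With spike-in scaling the 3 higher ones no longer passed, at changes of 0.01 for Brca2-210, 0.01 for Fancd2-201 and −0.19 for Msh6-201. With no filter on low counts Fancd2-201 (0.1076), Msh6-201 (0.1828) and Xrcc6-212 (0.1783) were lost, the last also without MII oocyte 1 (0.1034). Expected counts divide reads shared between transcripts by a model, so shares of transcripts that differ mainly at their ends carry the error of that model as well. Between GV and MI 97 member transcripts were tested and edgeR called 0, as did DESeq2, with 2 and 5 at an unadjusted p under 0.05. Of all 22717 transcripts tested edgeR called 0 and DESeq2 103.

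The 3′ UTRs were searched for the cytoplasmic polyadenylation element, the motif through which stored oocyte mRNAs gain poly(A) tail. It was taken as TTTTAT or TTTTAAT on the transcribed strand in the last 100 bases of the annotated 3′ UTR of each gene's main coding transcript. Of the 34 members with a UTR of at least 100 bases 3 held it (8.82%), against 2144 of 10528 genes tested between GV and MII (20.4%). The 3 sites are printed because they show which repair transcripts carry the element, with the motif in capitals and 30 bases from GRCm38 in the sense of the transcript.
Brca2, chr5:150569697-150569726, plus strand: ctacaactatcaTTTTATatacaaaataaa
Bard1, chr1:71027568-71027597, minus strand: gtaatTTTTATtttttcctaatggatttaa
Xpc, chr6:91489327-91489356, minus strand: aggaaagagttcTTTTATaggacctccagg
The motif starts 39 bases before the annotated end of the UTR in Brca2, 95 in Bard1 and 40 in Xpc. From GV to MII the log2 changes of these genes were 0.58 for Brca2, 0.40 for Bard1, the partner of Brca1, and −0.31 for Xpc. Their median was 0.40, against 0.13 for the 31 members without the motif, and over all genes tested the medians were 0.20 with it and 0.00 without. From GV to MI the medians were 0.29 with it and 0.07 without among the members, and 0.03 and 0.01 over all genes tested. Msh6, Xpa and Ercc1 have UTRs under 100 bases and were not searched, and a match is a description of sequence, not a measured site of polyadenylation.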

How the data were processed

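Smart-seq2 libraries (KAPA HyperPlus kit) were trimmed by the authors with Trim Galore 0.6.4, and RSEM 1.3.1, run on mm10 with GENCODE VM20 and ERCC sequences, gave the expected counts that were deposited at gene and transcript level. For the deposited gene counts the authors aligned reads with STAR 2.7.6a and counted them with HTSeq 0.12.4, whose strand setting is not stated. The members and lists were chosen with earlier results of these data known. Gene symbols, positions and UTRs came from GENCODE M21 on GRCm38, in which 53861 of 54752 gene identifiers were found.

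Expected counts were rounded, the 92 spike-in features were left out, features of low count were removed with filterByExpr, and edgeR 4.0.16 in R 4.3.3 ran its quasi-likelihood test with TMM scaling. A feature was called with a Benjamini-Hochberg adjusted p under 0.05 over all features tested and a fold change over 2, and in the test of the difference with the adjusted p alone. SEs are those implied by the F statistic. The test was tried on simulated data. GV was compared with MII in batch A and with MI in batch B, and the difference was tested in a model with a mean for each group. CPM were scaled by TMM within a batch. TPM were computed from transcript counts and annotated lengths.

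Named with values per group are members called in a comparison or in the test of the difference, and the member of highest TPM at GV in batch A in each role. Members past adjusted p alone are named with their change, as are up to 6 called other repair genes and 8 called transcripts per comparison. Other names were chosen after their values were seen. Alternatives were no filter (at least 1 count), DESeq2 1.42.0, its size factors, HTSeq counts, spike-in size factors, a replicate block, and leaving out oocytes. Leaving out GV oocyte 7 of batch B, and in the test of the difference MI oocyte 15 or MI oocytes 4, 8 and 9, was chosen after seeing the data. Depth per oocyte was 2709247 to 19390137 counts, and molecules were not tagged before amplification.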

Additional observations from a re-analysis of the deposited data

Results flagged for a closer look

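Among 45 groups of values checked, 7 held an oocyte far from the others of its group, where chance gives about 1 in 20. Fancd2 in GV oocyte 5 of batch A was at 26.2 CPM, below 36.2 in the next lowest oocyte. MII oocyte 1 had 29816 genes detected and 38.7 summed TPM of blood and immune markers, against at most 22598 genes and 3.58 TPM in the other MII oocytes. GV oocyte 4 of batch A had 3.92 summed TPM of blood and immune markers. In GV oocyte 7 of batch B the repair genes took 0.0977% of the counts, against 0.176% in the next lowest. MII oocyte 2 had the highest summed TPM of oocyte markers (9486) and of cumulus and granulosa markers (32.2) in its group.

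Differences between the MII change of batch A and the MI change of batch B passed edgeR's test for Xrcc5 (−1.22 log2), Chek1 (0.58), Fancd2 (0.95) and Rad54b (−1.11). Stage and batch cannot be told apart in them.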

How the results depend on the processing

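Between GV and MII the count of 1 called member became 2 with DESeq2, 11 with spike-in size factors and 6 with adjusted p alone. With spike-in size factors the log2 change was −0.18 for Brca2, −0.22 for Msh6, −0.066 for Palb2 and −0.19 for Msh6-201. Called transcripts went from 5 to 15 with spike-in size factors and to 3 without MII oocyte 1. In the test of the difference, the 3 calls became 1 with HTSeq counts, also without MI oocytes 4, 8 and 9. The cause was not tested. Xrcc5 kept its call under all alternatives run. Between GV and MI 0 members were called by edgeR under any alternative, or by DESeq2, with 0 to 2 at an unadjusted p under 0.05.

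Over all genes, the 1095 calls at MII became 1859 with no filter and 3919 with spike-in size factors, and 1252 transcripts became 4321 with the latter. The 15 calls at MI became 40 with no filter, 116 with DESeq2, 7 without GV oocyte 7 and 0 with HTSeq counts. For transcripts at MI, 0 became 2 with no filter and 103 with DESeq2. The 823 calls of the difference became 1600 with no filter, 319 with HTSeq counts, 380 with these and without MI oocytes 4, 8 and 9, and 512 without MII oocyte 1.

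No label says whether the replicate numbers pair the oocytes. Oocytes of the same number correlated at −0.327 to 0.341 in batch A and −0.146 to 0.107 in batch B. They correlated best with their own number in 1 of 6 and 0 of 10. In batch A 0.341 was the highest of all correlations between a GV and an MII oocyte. A low correlation does not exclude a shared mouse or plate, so these values cannot decide on pairing. With the replicate block edgeR called 1 member at MII and 0 at MI, with 9 and 1 at an unadjusted p under 0.05, and the members past adjusted p alone at MII went from 6 to 4.

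Chek2 and Mlh3, with medians of 8.5 to 21 counts, are the members most limited by depth.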
